A study of Arabidopsis thaliana with 12 samples.

Results

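The genotype by water potential interaction asks, probe set by probe set, whether seedlings of the hai1-2 mutant and of the wild type Col-0 of Arabidopsis thaliana responded differently to low water potential. It is the response of hai1-2, log2 signal at -1.2 MPa minus log2 signal at -0.25 MPa, minus the same response of Col-0. All 12 of the 12 arrays of the series entered it, and a value of 0 means equal responses. A positive value means a larger rise or a smaller fall in hai1-2, and a negative value a smaller rise or a larger fall in hai1-2.

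The mutant hai1-2 is 1 allele of HAI1 (At5g59220), and Col-0 is its background. Seedlings 7 days old were moved to agar infused with polyethylene glycol at -1.2 MPa (stress) or to fresh agar at -0.25 MPa (control), without sugar in the medium, and whole seedlings were collected after 96 h. The 4 groups were stressed hai1-2, control hai1-2, stressed Col-0 and control Col-0, with 3 arrays each. The series comprised 3 independent experiments with 1 array of each group, so each experiment also gives an interaction value of its own.

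HAI1 is a clade A type 2C protein phosphatase, one of the negative regulators of signalling by abscisic acid, a hormone that builds up in plants short of water. Hormone-bound receptors inhibit these phosphatases, which frees SnRK2 kinases to phosphorylate transcription factors and other targets. Genes for late embryogenesis abundant proteins, which protect cells as they dry, are among the best known targets of the pathway, while transcripts for growth and for photosynthesis commonly decline in stressed seedlings.

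On each array the mean signal with the outer 2% at each end removed was 500, and the median signal was 195 to 212 over 22810 probe sets. Correlations of log2 signal between arrays ran between 0.838 and 0.982 across the 17059 probe sets tested. Both shoot and root transcripts were present in every group, as in whole seedlings: RCA, which activates Rubisco, had a signal of 13947.6 or more on every array, and PYK10, a beta-glucosidase of roots, one of 14639.3 or more. No probe set is annotated to HAI1 in the table of gene names used. HAI1 could therefore not be looked up by name as a check of the genotype labels. Deviations of single arrays from their group mean had an SD across probe sets of 0.215 to 0.231 log2 in stressed hai1-2 and 0.220 to 0.314 log2 in control hai1-2. In Col-0 it was 0.209 to 0.228 log2 under stress and 0.288 to 0.314 log2 on control plates. The ratio of 5' to 3' signal of the control transcript GAPDH, a measure of RNA integrity, also moved with the interaction. It averaged 1.11 ± 0.0582 in stressed hai1-2, 0.943 ± 0.0894 in control hai1-2, 0.869 ± 0.101 in stressed Col-0 and 1.00 ± 0.0191 in control Col-0 (SD, n = 3 each). Its interaction was 0.45 log2 (exact permutation p = 0.02, two-sided, adjusted p = 0.06 over 3 control transcripts). The same ratio gave 0.15 for actin and -0.07 for ubiquitin (exact permutation p = 0.745 and 0.735). The part of RNA integrity in the results below was not tested.

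A single probe set of the 17059 tested was called as different in its response between the genotypes. It was lower in hai1-2 (percent called 0.00586), and none was higher (percent called 0), at a limma adjusted p under 0.05. At an unadjusted p under 0.05 there were 732 probe sets (4.29%), of which 354 had positive and 378 negative interactions, where 853 would pass if no response differed. That count depended on the fit. With the experiment paired as a replicate block within each water potential or in both factors it was 1259 and 1244, above 853, and without control Col-0 replicate 1 it was 1229, while the calls after adjustment stayed at 1 probe set. The responses themselves were called for 6421 probe sets in hai1-2 (37.6%) and for 5838 in Col-0 (34.2%). Across the 17059 probe sets these responses, which share no arrays, correlated at r = 0.926. The hai1-2 response was the larger in size for 9470 of them.

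The called probe set was 247723_at, to which the annotation gives no gene, so it is given by its identifier only. Whether it reads HAI1, the mutated gene itself, cannot be told from that annotation. The call therefore cannot be counted as a change in a gene other than HAI1. Its signal was 373.3, 256.3 and 349.2 on the stressed hai1-2 arrays, 110.9, 110.1 and 97.1 on the control hai1-2 arrays, 2602.7, 3125.0 and 3173.5 on the stressed Col-0 arrays, and 130.2, 164.1 and 94.5 on the control Col-0 arrays. The stressed arrays of the genotypes were far apart, with every hai1-2 signal below every Col-0 signal, and the control arrays overlapped. The response was 1.47 log2 in hai1-2 (limma adjusted p = 4.4e-05) and 4.38 log2 in Col-0 (limma adjusted p = 3.2e-09). The interaction was -2.91 ± 0.27 (SE, limma adjusted p = 0.000898) and was negative in 3 of 3 experiments, at -2.55, -3.01 and -3.16. Within the stressed groups the genotype difference was -3.14 log2, the single call of that comparison (percent called 0.00586), and within the controls it was -0.23 log2, with no call for any probe set (percent called 0). Leaving out all 4 arrays of experiment 1, 2 or 3 kept the value at -3.09, -2.85 and -2.78 and raised the limma adjusted p to 0.0573, 0.0785 and 0.206.

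**Figure D1:**
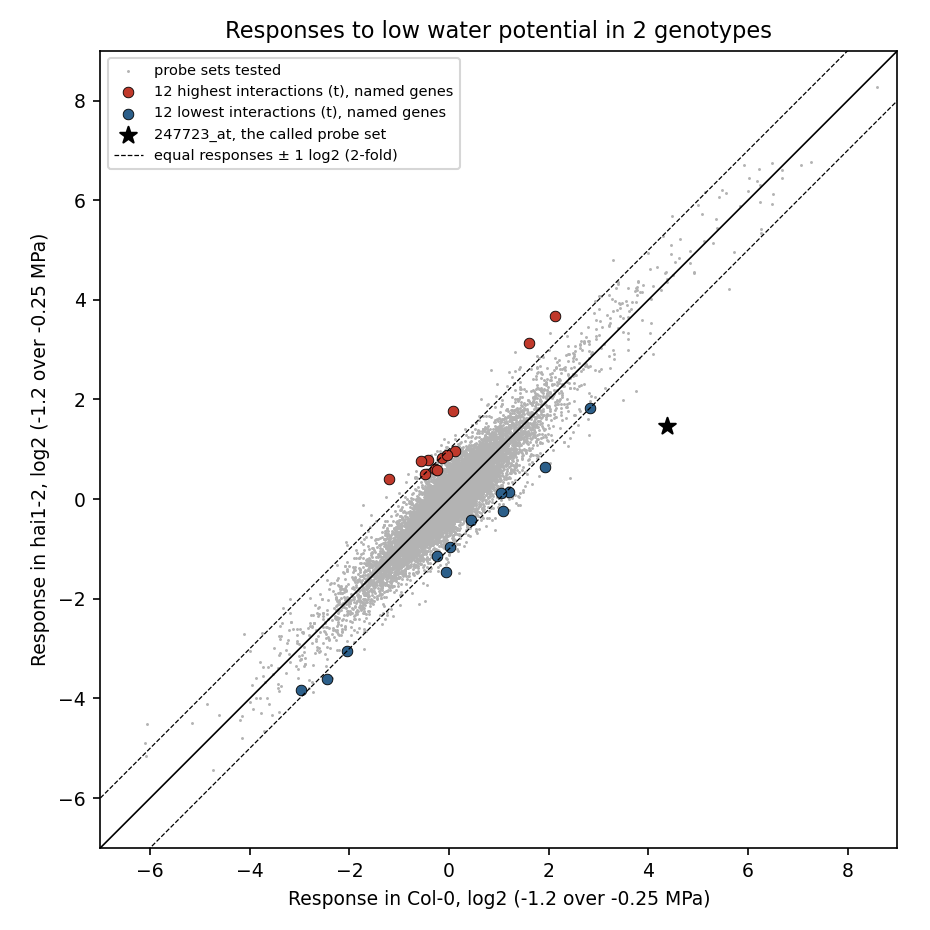
Each grey point is 1 of 17059 probe sets, with its response in Col-0 on the x axis and in hai1-2 on the y axis (log2 of -1.2 over -0.25 MPa, group means of 3 arrays). The solid line marks equal responses, dashed lines a difference of 1 log2, red and blue points the 12 highest and 12 lowest named genes by moderated t, and the star 247723_at, which lies alone at 4.38 and 1.47.

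The precision of 3 arrays a group, in the fit without a replicate block, set what could be seen. Intervals from fits with the block are not given here. The median SE of an interaction was 0.280 log2 and the median 95% interval reached 0.603 log2 to either side. The middle 95% of probe sets lay between -0.69 and 0.65, around a median of 0.00435. Point estimates passed 1 log2, a 2-fold difference between responses, for 183 probe sets, of which 77 were positive and 106 negative. For 68.7% of probe sets the 95% interval stayed within a 2-fold difference in either direction, and for 97.95% within a 4-fold difference. Strong signals were measured better than weak ones: in the 5686 probe sets of highest level (median signal 1183) the median SE was 0.239 and 81.9% of intervals stayed within 2-fold. In the 5687 of lowest level (median signal 102) the median SE was 0.352 and 46.7% did. For the other 31.3% of all probe sets the interval reached beyond 2-fold, so this fit did not exclude a difference of that size.

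Interaction values of the 3 experiments, each an estimate from 4 arrays, correlated weakly across the transcriptome. The SD of the interaction over probe sets was 0.468, 0.507 and 0.622 log2 in experiments 1, 2 and 3, and the values of different experiments correlated across 17059 probe sets at r = 0.10 (1 and 2), 0.0763 (1 and 3) and 0.0741 (2 and 3). The sign was the same in all 3 experiments for 4919 probe sets (28.8%), positive in 2524 (14.8%) and negative in 2395 (14%). The 3 responses of hai1-2 did not overlap the 3 of Col-0 for 1581 probe sets (9.27%).

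The genes nearest to a call were followed by name: the 12 with the highest and the 12 with the lowest moderated t among those with 1 annotated gene and the same sign in all 3 experiments. None of the 24 passed the test, and each had a limma adjusted p of 0.990. Their values are descriptions of genes picked by this contrast. In the highest 12 the interaction ran between 0.83 and 1.69 log2, and in the lowest 12 between -1.41 and -0.86. In all 24 the genotype difference had opposite signs at the different water potentials, and it was larger in size under stress in 8 of the highest and 11 of the lowest 12. Stressed arrays of the genotypes did not overlap in any of the 24, against 14.1% of all probe sets tested, and control arrays did not overlap in 7 of the highest and 5 of the lowest 12, against 6.41%. Both shares, and the opposite signs, follow in part from how the genes were picked. The share of opposite signs over all probe sets is not given here.

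**Figure D2:**
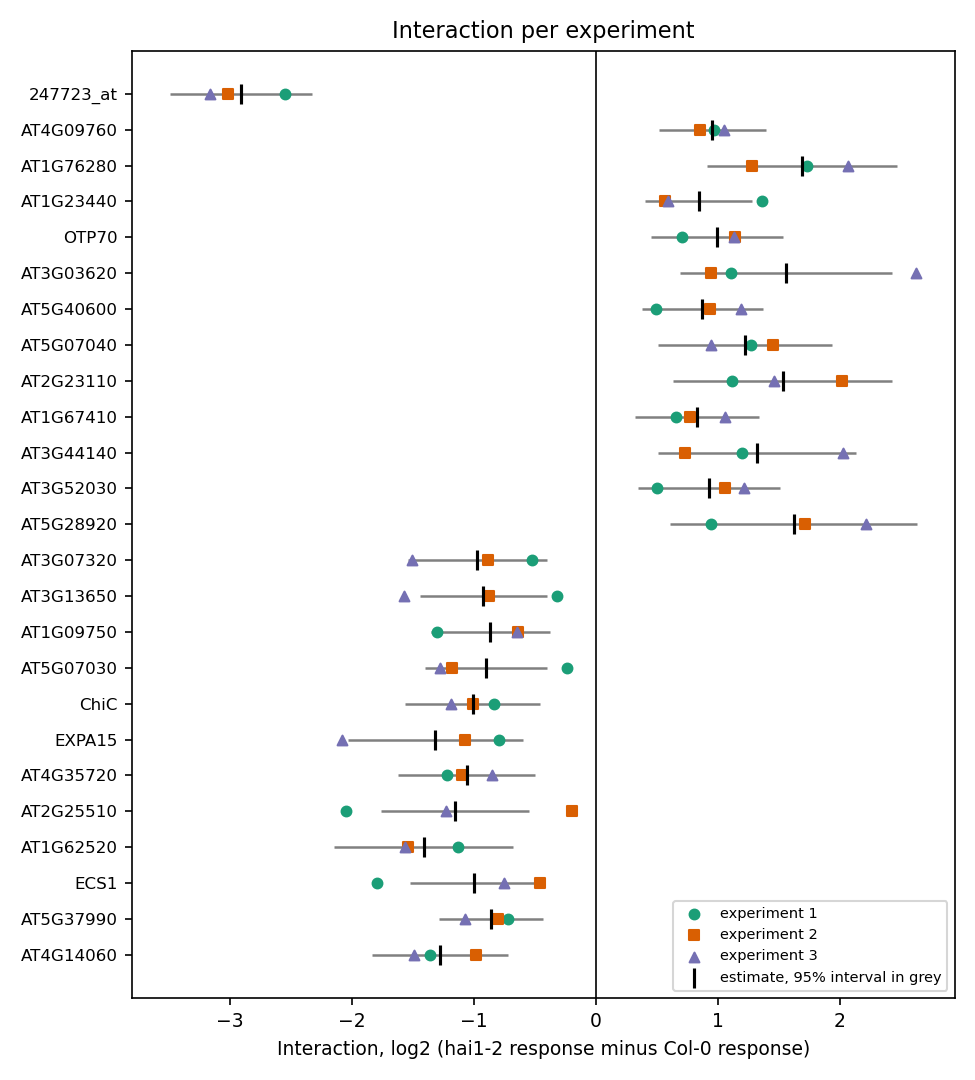
Interaction (x axis, log2, hai1-2 response minus Col-0 response) of 247723_at and the 24 named genes (rows), with the estimate as a black bar, its 95% interval as a grey line and the value of each experiment as a symbol. For 247723_at the experiments lie at -2.55, -3.01 and -3.16, while for EXPA15 they spread between -2.08 and -0.79.

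AT4G09760, a choline kinase family protein and so linked to phospholipid synthesis, had the highest t. It read 1101.5, 963.1 and 1084.2 on stressed hai1-2 arrays and 567.5, 560.7 and 635.0 on control hai1-2 arrays. In Col-0 it read 728.6, 739.2 and 825.0 under stress and 744.2, 789.4 and 1013.5 on control plates. Stressed hai1-2 was above and control hai1-2 below every Col-0 array of the same water potential. Its response was 0.82 log2 in hai1-2 and -0.14 in Col-0, with an interaction of 0.96 ± 0.20 (SE) and experiment values of 0.97, 0.86 and 1.05.

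AT1G76280 had the largest value of the 12, 1.69 ± 0.36 (SE), at a weak signal. It read 117.5, 103.6 and 78.8 on stressed hai1-2 arrays, 27.3, 18.0 and 9.5 on control hai1-2 arrays, 75.4, 77.1 and 59.3 on stressed Col-0 arrays and 82.4, 48.5 and 68.9 on control Col-0 arrays. The control hai1-2 arrays stood apart from the other groups, below all of them. Being weak, the value depended on the pseudocount, at 2.38 with 1 and 0.94 with 64 in place of 16.

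Among the highest 12 were genes that rose in both genotypes and further in hai1-2. AT3G03620, a MATE efflux family transporter, read 219.6, 294.7 and 392.7 on stressed hai1-2 arrays against 115.6, 206.6 and 126.3 on stressed Col-0 arrays. Its control signals were 16.9, 6.7 and 3.1 in hai1-2 and 23.7, 15.3 and 25.1 in Col-0. The stressed groups did not overlap, and the response was 3.68 log2 in hai1-2 against 2.12 in Col-0 (interaction 1.56 ± 0.40, SE). With control signals near the pseudocount, the interaction of AT3G03620 was 2.42 with a pseudocount of 1 and 1.01 with 64. AT2G23110, a small late embryogenesis abundant protein that was not among the listed members of that family, read 395.5, 467.8 and 241.7 under stress in hai1-2 and 193.1, 123.5 and 146.1 in Col-0. Control signals of AT2G23110 were 45.6, 20.6 and 17.6 in hai1-2 and 51.9, 26.7 and 42.3 in Col-0, overlapping, and its interaction was 1.53 ± 0.42 (SE).

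OTP70, a pentatricopeptide repeat protein of organelle transcript processing, was called in opposite directions in the genotypes, and so was AT5G37990 among the lowest 12. OTP70 read 130.2, 145.5 and 141.5 on stressed hai1-2 arrays, 103.8, 81.7 and 94.0 on control hai1-2 arrays, 82.1, 90.3 and 63.1 on stressed Col-0 arrays and 115.6, 125.7 and 105.3 on control Col-0 arrays. It rose by 0.51 log2 in hai1-2 (limma adjusted p = 0.0368) and fell by 0.49 log2 in Col-0 (limma adjusted p = 0.0489), both close to the threshold. Neither water potential showed overlap between the genotypes, and the interaction was 1.00 ± 0.25 (SE).

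AT5G37990, of the SABATH family of methyltransferases, had the reverse pattern. It read 1837.0, 1947.0 and 1651.8 on stressed hai1-2 arrays, 2312.0, 2761.8 and 2193.9 on control hai1-2 arrays, 2587.6, 2355.1 and 3129.5 on stressed Col-0 arrays and 1976.5, 1910.2 and 1975.2 on control Col-0 arrays. Again neither water potential showed overlap. It fell by 0.41 log2 in hai1-2 (limma adjusted p = 0.0330) and rose by 0.45 log2 in Col-0 (limma adjusted p = 0.0238), with an interaction of -0.86 ± 0.20 (SE). The interactions of OTP70 and AT5G37990 were not called, so an opposite direction rests on the separate response tests.

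AT4G14060, a major latex protein-like member of a lipid-binding family, had the lowest t among named genes. It read 572.2, 552.2 and 708.3 on stressed hai1-2 arrays, 327.9, 412.3 and 418.4 on control hai1-2 arrays, 1132.0, 763.9 and 1218.7 on stressed Col-0 arrays and 245.9, 282.8 and 247.3 on control Col-0 arrays. Each hai1-2 array lay below the Col-0 arrays under stress and above them on control plates. The transcript rose by 0.64 log2 in hai1-2 (limma adjusted p = 0.0143) and by 1.91 log2 in Col-0, and the interaction was -1.28 ± 0.26 (SE), at -1.36, -0.98 and -1.49 in the experiments. Its limma adjusted p came to 0.146 in the fit with the replicate block in both factors, the lowest that any of the 24 genes reached in any fit.

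ChiC, a class V chitinase, rose in both genotypes and less in hai1-2. Stressed arrays read 1564.2, 1230.6 and 1412.7 in hai1-2 and 2231.3, 1958.6 and 2552.1 in Col-0, while control arrays read 312.0, 464.3 and 390.1 in hai1-2 and 246.6, 363.3 and 304.6 in Col-0. The stressed groups were apart, the controls overlapped, and the interaction was -1.01 ± 0.26 (SE). ECS1, a short cell wall protein, was a strongly lowered transcript. Stressed arrays read 2062.8, 2868.5 and 3173.0 in hai1-2 and 6168.9, 4198.6 and 5237.4 in Col-0, against control signals of 23686.2, 19915.3 and 22586.8 in hai1-2 and 20369.1, 21233.5 and 22097.2 in Col-0. It fell by 3.04 log2 in hai1-2 and by 2.04 log2 in Col-0, with experiment values of the interaction at -1.79, -0.45 and -0.75.

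The remaining highest genes were AT1G23440 (0.85 log2), AT5G40600 (0.87), AT5G07040, a RING-type zinc finger protein (1.23), AT1G67410, of the exostosin family of glycosyltransferases (0.83), AT3G44140 (1.32), AT3G52030 (0.93) and AT5G28920 (1.62, or 2.63 and 0.82 with pseudocounts of 1 and 64). The remaining lowest genes were the aspartyl proteases AT5G07030 (-0.90) and AT1G09750 (-0.86), AT3G13650, of the dirigent family that guides lignan coupling (-0.92), AT3G07320, a glycosyl hydrolase of family 17 (-0.97), and EXPA15 (-1.31), with AT1G62520 (-1.41), AT2G25510 (-1.16) and AT4G35720 (-1.06). Probe sets without an annotated gene chosen by the same rule were 258923_at (1.12), 265084_at (1.63) and 262704_at (-1.55). With pseudocounts of 1 and 64 the value was 2.00 and 1.19 for 265084_at and -1.87 and -1.02 for 262704_at.

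**Figure D3:**
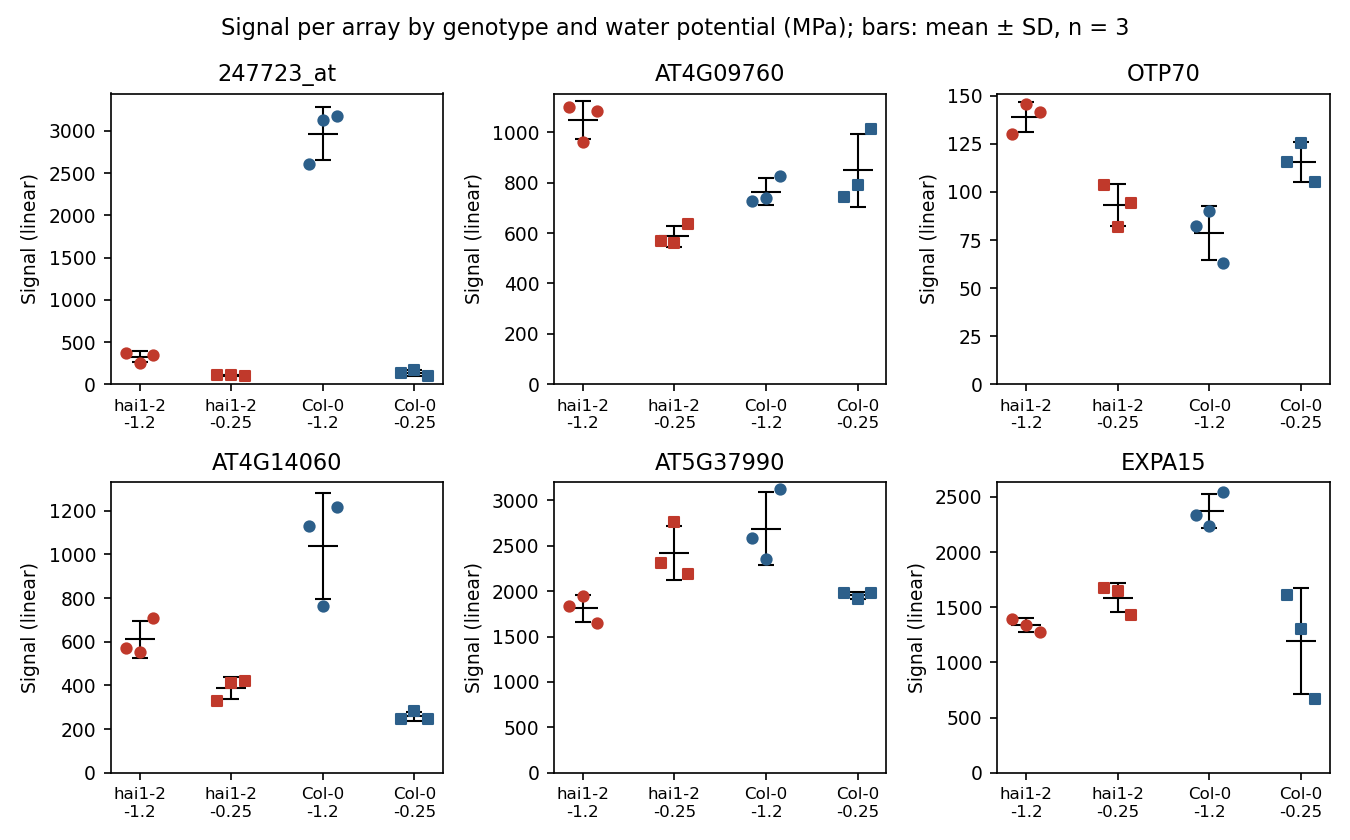
Signal per array (y axis, linear, starting at 0) of 247723_at and 5 named genes in stressed and control hai1-2 (red) and stressed and control Col-0 (blue), with bars for mean ± SD (n = 3). For 247723_at the stressed Col-0 arrays sit between 2602.7 and 3173.5 and all others at 373.3 or below. For EXPA15 control Col-0 spreads between 664.9 and 1612.7.

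Known functional groups were then read through 40 gene lists, of which 26 had tested members and 20 had at least 3, with 193 genes in all. No listed gene was called for the interaction. Each list is given by its counts and its median beside those of all 17059 probe sets, of which 8637 were positive around a median of 0.00435. With single arrays or experiments left out, the median changed sign for 12 of the 20 lists and kept it for 8, which were autophagy, auxin early response, aldehyde dehydrogenases, tubulins, expansins, histones and cell division, photosynthesis and glutathione S-transferases. Lists of abscisic acid receptors, clade A phosphatases, SnRK2 kinases, abscisic acid synthesis and abscisic acid-linked transcription factors had no gene matched by a tested probe set, so they were not analysed here by name.

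The dehydrins and late embryogenesis abundant proteins responded in both genotypes, with no difference called. Of 18 tested, 16 rose in hai1-2 and 17 in Col-0 (percent called 19.9 and 18.1 over all probe sets), and none fell. Their interactions were positive for 11, with a median of 0.04 log2 and a range between -1.14 and 0.53. The 95% interval stayed within a 4-fold difference for 17 of 18 (97.95% of all probe sets), but within 2-fold for only 5 (68.7%). A 2-fold difference was thus not excluded for most of them. DI21, a drought-induced protein, read 8158.1, 13206.1 and 11707.2 on stressed hai1-2 arrays, 709.3, 890.9 and 878.6 on control hai1-2 arrays, 7720.8, 7103.7 and 9353.4 on stressed Col-0 arrays and 675.2, 858.5 and 1169.1 on control Col-0 arrays. The genotypes overlapped at both water potentials (interaction 0.53 ± 0.30, SE). The exception in size was COR15B, a chloroplast-protecting cold-regulated protein, at -1.14 ± 0.58 (SE). Its control Col-0 arrays read 69.8, 198.3 and 411.4, the other groups between 291.5 and 482.5, and without control Col-0 replicate 1 the value was -0.53. AT1G54410, the dehydrin with the highest signal, had an interaction of 0.15.

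Proline and ornithine metabolism had 2 tested genes. DELTA-OAT, ornithine delta-aminotransferase of mitochondria, read 995.0, 980.0 and 1035.2 on stressed hai1-2 arrays and 782.8, 699.3 and 744.6 on stressed Col-0 arrays. On control plates it read 424.8, 402.5 and 413.1 in hai1-2 and 450.6, 416.1 and 441.3 in Col-0. Stressed arrays of the genotypes were apart, as for 14.1% of all probe sets tested, and control arrays overlapped. It rose by 1.25 log2 in hai1-2 and by 0.75 log2 in Col-0, and the interaction of 0.50 ± 0.17 (SE) kept close to the same value in the experiments, 0.42, 0.52 and 0.56, without passing the test. AT5G38710, a proline dehydrogenase, which degrades proline, had an interaction of -0.43.

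All 5 tested genes of flavonoid and anthocyanin synthesis rose in both genotypes (19.9% of all probe sets in hai1-2 and 18.1% in Col-0), with a median interaction of 0.02. UF3GT, a glycosyltransferase of anthocyanins, had the most positive value (0.72 ± 0.40, SE), and DFR, dihydroflavonol reductase, the most negative (-0.55 ± 0.40, SE). UF3GT overlapped between the genotypes under stress, with control signals of 9.2, 39.6 and 29.0 in hai1-2 and 42.3, 62.8 and 49.5 in Col-0. Those control signals are weak, and the value of UF3GT ran between 0.34 and 1.13 over all 28 settings. DFR read between 9406.1 and 12095.5 on stressed hai1-2 arrays and between 8707.6 and 10194.9 on stressed Col-0 arrays, with overlap. UGT78D2, a flavonoid glucosyltransferase, had 0.02. Starch and sucrose metabolism had AMY1, an alpha-amylase, at 0.87 ± 0.40 (SE) and DPE1, the plastid disproportionating enzyme, at 0.33.

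Transcripts of photosynthesis fell in both genotypes, 8 of 8 tested (percent called 17.8 in hai1-2 and 16.1 in Col-0 over all probe sets), and 7 of the 8 interactions were negative, with a median of -0.21 log2. PSBY, a photosystem II subunit, read 3877.2, 3913.4 and 3885.1 on stressed hai1-2 arrays and 5085.6, 5375.8 and 4534.6 on stressed Col-0 arrays, apart, while control arrays overlapped at 18684.9, 13524.7 and 15085.4 in hai1-2 and 15495.6, 16570.5 and 9821.0 in Col-0. Its interaction was -0.55 ± 0.26 (SE), and -0.32 without control Col-0 replicate 3, the lowest array of its group. That of RCA was -0.33 ± 0.17 (SE). The list's experiment medians were -0.55, 0.01 and -0.25, and with arrays or experiments left out its median ran between -0.36 and -0.09. The 3 root markers, with PYK10 at 0.22 and the root hair expansin EXPA7 at -0.49, had a median of -0.17. In whole seedlings fewer cells of a type and less RNA per cell cannot be told apart, and the part of tissue proportions in the interaction was not tested.

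Most expansins, which loosen the bonds between wall polymers, had negative interactions, none of them called. They were 11 of the 14 tested, 5 of them in all 3 experiments (14% of all probe sets), with a median of -0.26 log2. An unadjusted p under 0.05 was reached by 4 of the 14 (4.29% of all probe sets). Of the 14, 4 rose and 4 fell in hai1-2 (19.9% and 17.8% of all probe sets), and 7 rose and 3 fell in Col-0 (18.1% and 16.1%). The difference between the genotypes' counts was not tested. EXPA15 read 1395.4, 1343.3 and 1276.2 on stressed hai1-2 arrays, 1675.3, 1650.1 and 1433.7 on control hai1-2 arrays, 2338.1, 2240.3 and 2541.2 on stressed Col-0 arrays and 1612.7, 1302.3 and 664.9 on control Col-0 arrays. Stressed arrays of the genotypes were well apart, and 1 control Col-0 array, replicate 3, was low. The interaction of EXPA15 was -1.31 ± 0.34 (SE), and -0.94 without that array.

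The same array was the low one for EXPB3 (757.3 against 2340.6 and 1865.7 on the other control Col-0 arrays) and for EXPA4 (1243.1 against 2337.6 and 2153.4). EXPB3, a beta-expansin, had an interaction of -1.31 ± 0.43 (SE), or -0.83 without that array, and EXPA4 -0.86 ± 0.32 (SE), or -0.58 without it. Stressed hai1-2 stayed below stressed Col-0 on every array for both, at 1973.4, 1738.9 and 1334.9 against 3158.4, 2910.8 and 2520.6 for EXPB3. EXLA3, an expansin-like protein named after its values were seen, had the lowest value, -1.68 ± 0.62 (SE), with experiments at -2.92, 0.12 and -2.24. It was -2.67 and -0.88 with pseudocounts of 1 and 64. The expansin median was -0.26, -0.06 and -0.80 in experiments 1, 2 and 3, and -0.05 without experiment 3, so it rested largely on that experiment.

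Medians of other lists of wall enzymes were also negative. The 7 xyloglucan endotransglucosylases, which cut and rejoin xyloglucan chains, had a median of -0.35 with 2 positive members, and the sign of that median turned (0.02) without control hai1-2 replicate 2. XTH20 stood at -0.41 and EXGT-A3 at 0.27. The 3 genes for pectin methylesterases, their inhibitors and pectate lyases had a median of -0.26, which turned to 0.11 without control Col-0 replicate 1, with PME61 at -0.56.

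All 5 tested tubulins, the building blocks of microtubules, had negative interactions, with a median of -0.39 log2. An unadjusted p under 0.05 was reached by 3 of the 5 (4.29% of all probe sets). In hai1-2 4 of 5 fell (17.8% of all probe sets) and in Col-0 2 of 5 (16.1%), and none rose. The difference between these counts was not tested. TUA6, an alpha-tubulin, read 4753.4, 4642.4 and 5008.4 on stressed hai1-2 arrays, 8765.1, 7611.8 and 7589.6 on control hai1-2 arrays, 6003.0, 6039.4 and 6977.0 on stressed Col-0 arrays and 8332.7, 6807.1 and 5105.3 on control Col-0 arrays. The stressed groups were apart and the control groups overlapped, again with control Col-0 replicate 3 lowest of its group. Its interaction was -0.67 ± 0.22 (SE), and -0.48 without that array. The beta-tubulins TUB5, TUB7, TUB1 and TUB9 had -0.54, -0.39, -0.27 and -0.09, and TUB7, TUB1 and TUB9 were named after their values were seen. Over the experiments the tubulin median was -0.08, -0.60 and -0.21.

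Among 4 histone and cell division genes HTR12, the centromeric histone H3, stood at -0.96 ± 0.30 (SE) and HIS1-3, a linker histone known to be induced by drought, at 0.52 ± 0.28 (SE), with a list median of -0.21.

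Autophagy genes were the list with the highest median among those with at least 3 members. All 9 tested had positive interactions, 5 of them in all 3 experiments (14.8% of all probe sets), with a median of 0.40 log2. An unadjusted p under 0.05 was reached by 1 of the 9 (4.29% of all probe sets). In hai1-2 7 of 9 rose (19.9% of all probe sets), and in Col-0 4 of 9 rose (18.1%) and 1 fell (16.1%), counts whose difference was not tested. Most encode ATG8, the small protein that is joined to lipid on the growing autophagosome. ATG8C read 1292.6, 1749.8 and 1534.4 on stressed hai1-2 arrays, 1054.8, 966.7 and 998.4 on control hai1-2 arrays, 1275.3, 1251.9 and 1202.6 on stressed Col-0 arrays and 1153.1, 1022.9 and 1199.1 on control Col-0 arrays. Stressed hai1-2 was the highest group, above every stressed Col-0 array, and the controls overlapped. Its interaction was 0.44 ± 0.19 (SE).

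None of the other autophagy genes had an unadjusted p under 0.05. AT5G66930, which encodes ATG101 of the kinase complex that starts autophagy, had 0.45 ± 0.23 (SE), and ATG8F, the member with the highest signal, 0.25 ± 0.19 (SE). Those of ATG8G (0.40), APG8A (0.44), ATG8B (0.37), APG8H (0.39), ATG8H (0.27) and ATG8E (0.91), named after their values were seen, had SEs between 0.22 and 0.51. The list's median was 0.26, 0.26 and 0.75 in experiments 1, 2 and 3, and between 0.30 and 0.51 with any single array or experiment left out. Control Col-0 replicate 3, the low array for EXPA15 and TUA6, was the highest of its group for every autophagy gene but ATG8F and ATG8G. For ATG8H it read 530.6 against 267.8 and 193.8, and without it the interaction of ATG8H was -0.12. The positive values of these genes are thus not independent of each other or of those lists.

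**Figure D4:**
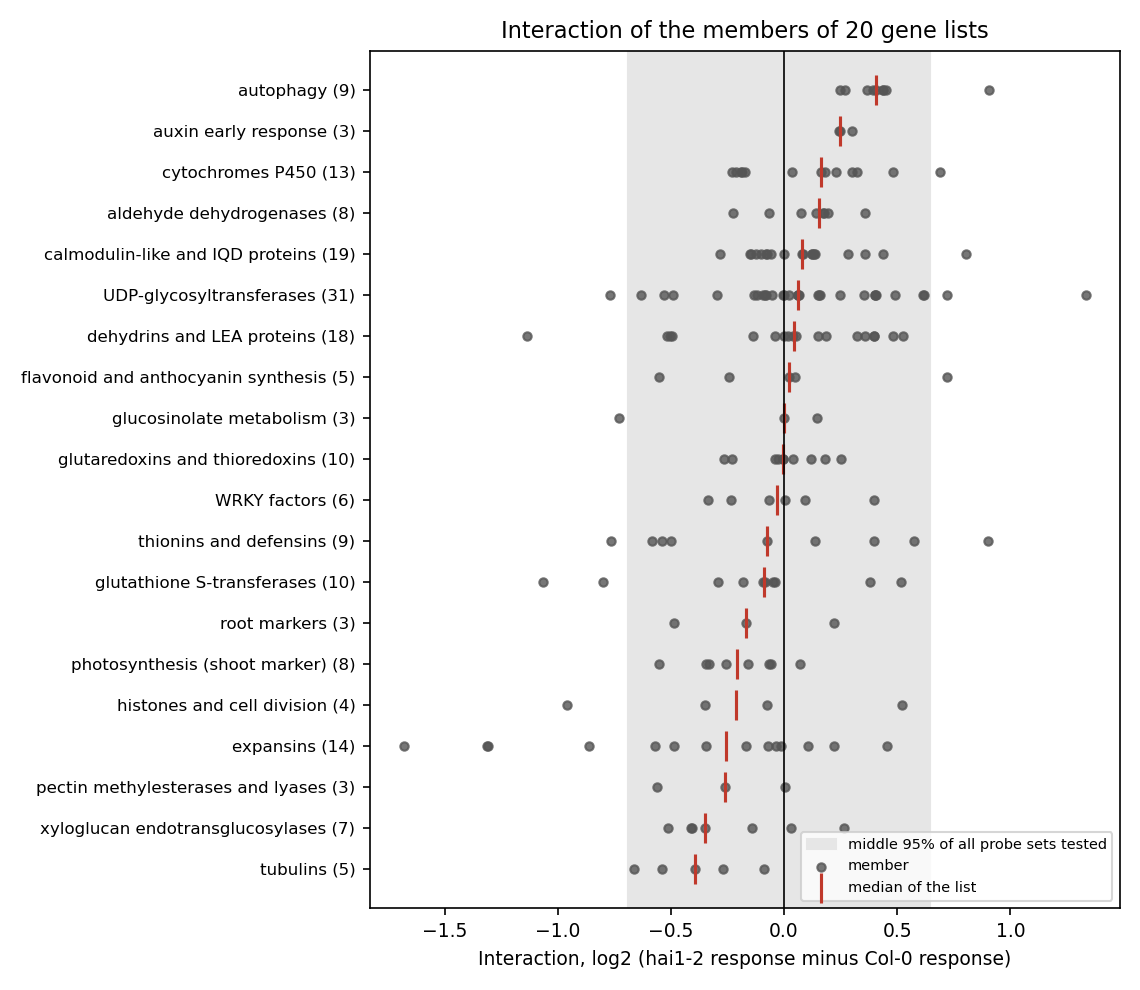
Interaction (x axis, log2, hai1-2 response minus Col-0 response) of each tested member (points) of the 20 gene lists with at least 3 of them (rows, number of members in brackets), with the list's median as a red bar. The grey band is the middle 95% of all probe sets, between -0.69 and 0.65. List medians lie between -0.39 (tubulins) and 0.40 (autophagy). The band describes single probe sets and is no measure of how far a median varies.

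Enzymes of detoxification and secondary metabolism scattered around 0. The 31 UDP-glycosyltransferases, which attach sugars to small molecules, had 19 positive values and a median of 0.06. Their largest moderated t were those of UGT85A7 (1.33 ± 0.50, SE) and UGT85A5 (0.62 ± 0.27, SE). UGT85A7 was weak, at 14.5, 58.6 and 56.8 on stressed Col-0 arrays, and its value ran between 0.81 and 1.725 over the settings tried. UGT85A5 read 1117.3, 1010.6 and 1091.5 on stressed hai1-2 arrays against 582.8, 716.5 and 777.4 on stressed Col-0 arrays, with control signals that overlapped. The 10 glutathione S-transferases had a median of -0.09, with GSTU20 at -1.07 ± 0.31 (SE) and GSTU16 at 0.51. GSTU20 read 2447.9, 2867.6 and 2232.4 on stressed hai1-2 arrays and 4603.8, 3543.3 and 3531.2 on stressed Col-0 arrays, apart from each other, while its control arrays overlapped. The 13 cytochromes P450 had a median of 0.16, with CYP71B5 at 0.69, CYP71B28 at 0.48 and CYP71B6 at -0.21. The 8 aldehyde dehydrogenases also had 0.16, and ALDH7B4, a dehydrogenase induced by drought, 0.36.

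The 9 thionins and defensins, small antimicrobial peptides, had a median of -0.08, which ran between -0.56 and 0.62 with arrays or experiments left out, with the thionin THI2.1 at 0.90 ± 0.45 (SE) and the defensin PDF2.1 at -0.77 ± 0.29 (SE). THI2.1 read 3862.9, 3185.5 and 3377.8 on stressed hai1-2 arrays and 1841.0, 832.4 and 2134.1 on stressed Col-0 arrays, which did not overlap, from control signals of 57.7 or less in both genotypes. Stressed Col-0 replicate 2 was the lowest of its group, and without it the interaction of THI2.1 was 0.49. In glucosinolate metabolism BCAT4, an aminotransferase of methionine chain elongation, had -0.73 ± 0.34 (SE), and the list's 3 genes a median of -0.00. The 6 WRKY factors, with WRKY20 at -0.34, had a median of -0.03, the 10 glutaredoxins and thioredoxins one of -0.01, the 19 calmodulin-like and IQD proteins one of 0.08, with IQD19 at 0.44 and IQD30 at 0.28, and the 3 auxin early response genes one of 0.25, with IAA18 at 0.24 and IAA30 at 0.30.

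Over the whole array the interaction was also read against the mean response of both genotypes. In a balanced design their errors are uncorrelated if all groups vary equally, but the median SD within a group was 0.184 log2 in stressed hai1-2, 0.202 in control hai1-2, 0.177 in stressed Col-0 and 0.265 in control Col-0. The mean response was called for 8646 probe sets (50.7%), 4753 that rose (27.9%) and 3893 that fell (22.8%). Those that rose 8-fold or more on average, 120 in number, had a median response of 4.21 log2 in hai1-2 and 3.81 log2 in Col-0 and a median interaction of 0.28, with 72.5% positive. The 1115 that rose 2- to 8-fold had a median interaction of 0.06, and the 8413 whose mean response was not called 0.01. The 1248 that fell 2- to 8-fold had -0.09, and the 69 that fell 8-fold or more -0.19. The medians had the sign of the response, but the experiments differed, and the median of the strongest fallers turned to 0.17 without control Col-0 replicate 1. In the strongest risers the medians were 0.28, 0.07 and 0.39, and in the strongest fallers -0.35, 0.31 and -0.17.

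The slope of the interaction on the mean response over all 17059 probe sets was 0.0480 log2 per log2, at 0.0977, -0.00410 and 0.0503 in the experiments. When genotype labels were exchanged within each water potential the exact permutation p was 0.18, two-sided, over 400 arrangements, of which the smallest p they can give is 0.005. Without control Col-0 replicate 1 the slope was 0.0139, and without experiment 1 0.0206.

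**Figure D5:**
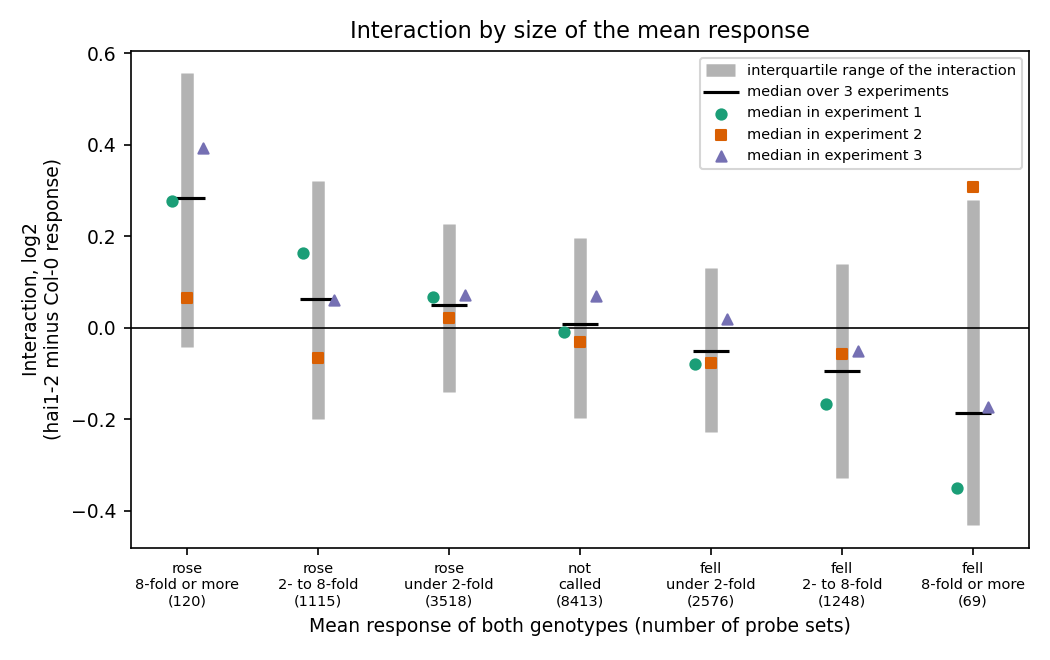
Interaction (y axis, log2, hai1-2 response minus Col-0 response) for probe sets grouped by their mean response over both genotypes (x axis, number of probe sets in brackets). Grey bars span the interquartile range, black lines are medians over the 3 experiments and symbols the medians of single experiments. The medians run between 0.28 in the strongest risers and -0.19 in the strongest fallers, and experiment 2 lies at 0.31 in the last group.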

How the data were processed

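Whole seedlings of 2 genotypes at 2 water potentials were measured on 12 one-colour Affymetrix arrays, 3 a group. The authors deposited intensities on a linear scale, which MAS5 made per the submitters' processing notes. The MAS5 version and settings were not given in the sources used here. The trimmed mean was equal on all arrays, so no further scaling was applied.

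Signals were taken as log2(value + 16), which understates changes of weak transcripts. The 64 control probe sets and the lowest 25% of the others by mean log2 (5687, below 5.67) were left out. The group means of all 12 arrays were fitted in limma 3.58.1 (R 4.3.3, with version 1.17.8 of the data.table package), with variances moderated along an intensity trend. Two-sided p-values were adjusted over the 17059 probe sets (Benjamini-Hochberg), and an adjusted p under 0.05 was a call. SE comes from this fit, and the script was tested on simulated data. Control ratios and the slope were tested by exact permutation of genotype labels within each water potential, over 400 arrangements.

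Gene names came from the platform's annotation, which gives 1 gene for 9396 of the tested probe sets, several for 355 and none for 7308. Of 13513 probe sets with 1 gene, 13436 had a locus in TAIR10.1, used for names only. Named are the 12 highest and 12 lowest moderated t among single-gene probe sets with the same sign in all experiments, genes called in opposite directions, up to 2 members of each list by size of t and the member with the highest level, and up to 2 unnamed probe sets a direction. Some genes within this rule are not reported here. The contrast, members and lists were chosen with earlier results of these data known.

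The replicate number pairs samples, since per the series' design text every group has 1 sample from each of 3 independent experiments. Deviations from the group means of same-numbered arrays correlated at 0.227 to 0.263 between genotypes under stress and at 0.128 to 0.517 on control plates. Between stress and control they correlated at -0.0232 to 0.0929 within a genotype and at -0.0978 to 0.107 across genotypes. Alternatives were 2 other pseudocounts, 2 filters, quantile normalization, median centring, no trend, robust moderation, array weights, 3 forms of the replicate block, and leaving out each array or experiment. Precision is limited by the number of arrays.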

Additional observations from a re-analysis of the deposited data

Results flagged for a closer look

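The interaction of 247723_at, -2.91 log2, was called by limma, so the genotypes differ in this response by a test of the difference itself. The annotation does not tell whether 247723_at reads HAI1, the gene mutated in hai1-2. Its rise was 1.47 log2 in hai1-2 and 4.38 log2 in Col-0.

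The 5' to 3' ratio of the control transcript GAPDH gave an interaction of 0.45 log2 (SD 0.0535 over 3 experiments, positive in 3 of 3 at 0.40, 0.44 and 0.51; exact permutation p = 0.02, two-sided, adjusted p = 0.06 over 3 transcripts), where actin and ubiquitin gave 0.15 and -0.07. With the older control probe sets of the array, a choice made after seeing the data, it was -0.67 (SD 1.13, exact permutation p = 0.14). What moved the ratio was not tested.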

How the results depend on the processing

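The interaction of 247723_at lay between -3.09 and -2.72 in all 28 settings and was called in all but those that left out the whole of replicate 1, 2 or 3 (limma adjusted p up to 0.206). No other probe set was called for the interaction: counts were 0 higher throughout and between 0 and 1 lower with arrays or experiments left out. With the replicate block for the experiment, within each water potential or in both factors, the limma adjusted p of 247723_at was 0.00373, 0.000521 and 0.000363, and 841, 1259 and 1244 probe sets had an unadjusted p under 0.05, against 732 without the block, 1028 without a filter and 481 with the lowest 50% left out. Of 17059 probe sets 853 would pass if no response differed, so the blocks within water potential and in both factors lie above that number. The block raised calls of the genotype difference to 3 under stress and 1 on control plates. Under stress array weights gave 3, no trend 2 and a pseudocount of 64 gave 2, and leave-outs gave between 1 and 2 under stress and between 0 and 1 on control plates. Calls of the response ran between 4077 and 6890 in hai1-2 and between 3702 and 6068 in Col-0 with arrays left out. With the older control probe sets the GAPDH and actin ratios turned to -0.67 and -0.36. Leaving out experiments gave 0.42 to 0.47 for GAPDH, -0.15 to 0.39 for actin and -0.131 to 0.0105 for ubiquitin. The smallest exact permutation p reached for GAPDH was then 0.0556. With an experiment left out the arrangements are too few to give a lower p, so none could pass 0.05. The sign of small interactions turned for AT1G54410 (-0.10 to 0.29), ATG8H (-0.14 to 0.65), TUB9 (-0.209 to 0.0346) and UGT78D2 (-0.19 to 0.25) with arrays left out, and for UGT78D2 under quantile normalization (-0.0184). The cause was not tested. The slope on the mean response ran between 0.0433 and 0.0541 (exact permutation p between 0.15 and 0.25), and between 0.0139 and 0.0618 with arrays left out, and its p was 0.344 when labels were exchanged within each experiment. Of the other values of named genes, 2121 kept their sign and side of the threshold. Of the list medians, 671 moved no further than their SD over the 3 experiments, whatever their sign. Another 29 list medians moved further, among them thionins and defensins (-0.56 to 0.62 with arrays left out). The median of probe sets that fell 8-fold or more ran between -0.24 and 0.17 with arrays left out.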
